A study of Danio rerio with 6 samples.

Results

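Translation factors are the soluble proteins that start and lengthen protein chains on the ribosome. This account covers the transcripts of initiation and elongation factors in head cells of zebrafish (Danio rerio) scarb2a mutants and their wild type siblings. Members were all table rows whose symbol starts with eif or eef: 74 of 11218 rows, which carry 67 different symbols. The prefix also takes in regulators of the factors, such as kinases and binding proteins, which are counted apart below.

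There were 3 libraries of scarb2a mutants (replicates 1, 2 and 3) and 3 of wild type siblings (replicates 1, 3 and 4), all from heads at 48 hours post fertilization. Each library came from a pool of 50 heads, so single animals cannot be told apart. From each pool, 5000 live cells were sorted for a reporter that both genotypes carry, a BAC transgene that the design text writes as scar2ba:KalTA4 (taken here as scarb2a), whose activator KalTA4 turns on the red protein of UAS-mKate2. The mutant allele is not described in the labels. The gene is a zebrafish relative of that for LIMP-2, the membrane receptor that takes glucocerebrosidase to lysosomes. Polyadenylated RNA was sequenced by MARS-seq adapted to bulk samples, a method that reads transcripts near their 3′ end.

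Values are normalized counts from the authors' deposited table, and the counts behind them came to between 1560238 and 2086990 per library. The mutated gene was too low to check the genotype labels or the sort, with 1.0, 5.9 and 4.5 normalized counts of scarb2a in mutant replicates 1, 2 and 3, against 3.5, 2.2 and 1.6 in wild type replicates 1, 3 and 4. Markers of several cell types differed between the same libraries. Of 6 mesenchyme and mural cell markers with a row, all 6 were higher in mutants. The mural cell marker pdgfrb had no row. Summed values of the 6 were 3267 to 3696 in mutants and 1256 to 1572 in wild type. Of 10 neuronal markers 7 were lower, with sums of 6484 to 6931 in mutants and 8373 to 9132 in wild type. All 6 lens markers were lower, with sums of 8.1 to 41.4 in mutants and 1601 to 2152 in wild type. Of 7 radial glia markers 4 were lower and 2 higher, with sums of 1038 to 1103 in mutants and 1582 to 1757 in wild type. Of 6 retinal markers 3 were lower, and all 3 pigment cell markers and 2 of 3 endothelial ones were higher. Both erythroid markers were higher, with sums of 12.9 to 1181 in mutants and 0 to 4.8 in wild type. Of 3 muscle markers, 1 epidermal and 1 macrophage marker none passed in limma, edgeR or DESeq2, with 1 muscle and the macrophage marker at an unadjusted limma p under 0.05. Of 7 immediate early and heat shock genes that tissue dissociation can switch on, 6 were higher, with sums of 6693 to 7539 in mutants and 3740 to 4156 in wild type. None of the markers with a row was at 0 in all libraries, and the part of these cell and stress markers in the results below was not tested. In such bulk samples a change in the makeup of the sorted cells and a change of RNA per cell cannot be told apart.

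In initiation, eIF2 brings the initiator tRNA to the small ribosomal subunit, eIF3 holds the assembly together, and eIF4 factors bind the cap and unwind the messenger RNA. In elongation, eEF1A delivers each aminoacyl-tRNA, the other eEF1 subunits reload it with GTP, and eEF2 moves the ribosome on by a codon. In mammals the messenger RNAs of elongation factors, like those of ribosomal proteins, carry a pyrimidine tract at their start that lets growth signals control their translation. Rapidly dividing progenitors, which are frequent in the brain at this age, are known for high levels of these transcripts.

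Several rows with eef symbols (5 of 14 tested) and eif symbols (14 of 55), among them eIF2 and eIF3 subunits, eIF5A and eIF6, were modestly higher in scarb2a mutants. These counts go by symbol and take in regulators, such as eif4ebp3l among the eif rows that rose. No row of the eIF4 group passed the test, and the 2 rows that fell were both elongation factors by symbol. Of 69 rows with a mean of at least 5 normalized counts, 19 were higher, 2 were lower and 48 did not pass (limma on log2(value + 1), Benjamini-Hochberg adjustment over all 9647 rows tested, adjusted p threshold of 0.05). Over all rows tested 10.9% were higher and 8.5% lower, against 27.5% of the members higher. The 2 sets differ in level, and the excess lay at high levels, in ranges chosen after the values were seen. With a mean of at least 500, 14 of 21 members were higher, beside 31.5% of all rows at that level. From 100 to 500 it was 3 of 17 members, beside 14.1%, and from 5 to 100 it was 2 of 31, beside 9.29%. Groups did not overlap for 36 members, 31 with the mutants above and 5 with the mutants below. That is 52.2% of those tested, against 34.6% of all rows at any level. The share without overlap was not computed by level. The members' median log2 difference, mutant minus wild type, was 0.13, beside -0.01 over all rows. The called differences were small, from 0.23 to 0.83 in size on the log2 scale, and none reached 1, as 697 of all rows did.

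The split of the calls into higher and lower moved with equal totals, and their count depended on the variance model. Other scalings kept the split near that of the main fit. Among members it was 19 higher and 2 lower with trimmed mean (TMM) scaling, and 22 higher and 2 lower with quantile normalization. With equal totals in all libraries, which moved the median of all rows to -0.12, the split was 14 higher and 6 lower among members and 795 higher and 1306 lower among all rows, against 1053 higher and 820 lower with the deposited scaling. The members' median was then 0.02. When limma was fitted without a mean-variance trend, only 2 members were called, eef1da and eif6. The count tests gave 20 higher and 2 lower in edgeR, and 18 higher and 0 lower in DESeq2, where 2 members were lower at an unadjusted p under 0.05.

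Members with many counts are measured more closely, and calls were more frequent among them. Their median difference was also larger, and the part of either in the calls was not tested. Of 21 members with a mean of at least 500 normalized counts 14 were higher and none lower, and their median was 0.25, beside 31.5% higher, 15.4% lower and a median of 0.03 for the 390 rows of the table at that level, which include ribosomal protein genes. Of 17 members from 100 to 500 there were 3 higher and 1 lower, beside 14.1% and 14.7% of all rows in that range. The median was 0.07 for these members and -0.03 for all rows in the range. Of 31 members from 5 to 100 there were 2 higher and 1 lower, beside 9.29% and 6.97%, and the medians were 0.02 and -0.01. These ranges were chosen after the values were seen. The median SE was 0.0713 on the log2 scale in the highest range and 0.223 in the lowest. Replicates of the 38 members at or above 100 lay close together, with a median coefficient of variation of 4.44% in mutants and 5.2% in wild type, against 7.16% in mutants and 7.26% in wild type for all rows at or above 100. The 2 sets differ in level, as 21 of these 38 members had a mean of at least 500, against 390 of these 1862 rows. The part of level in the closer replicates was not tested.

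**Figure D1:**
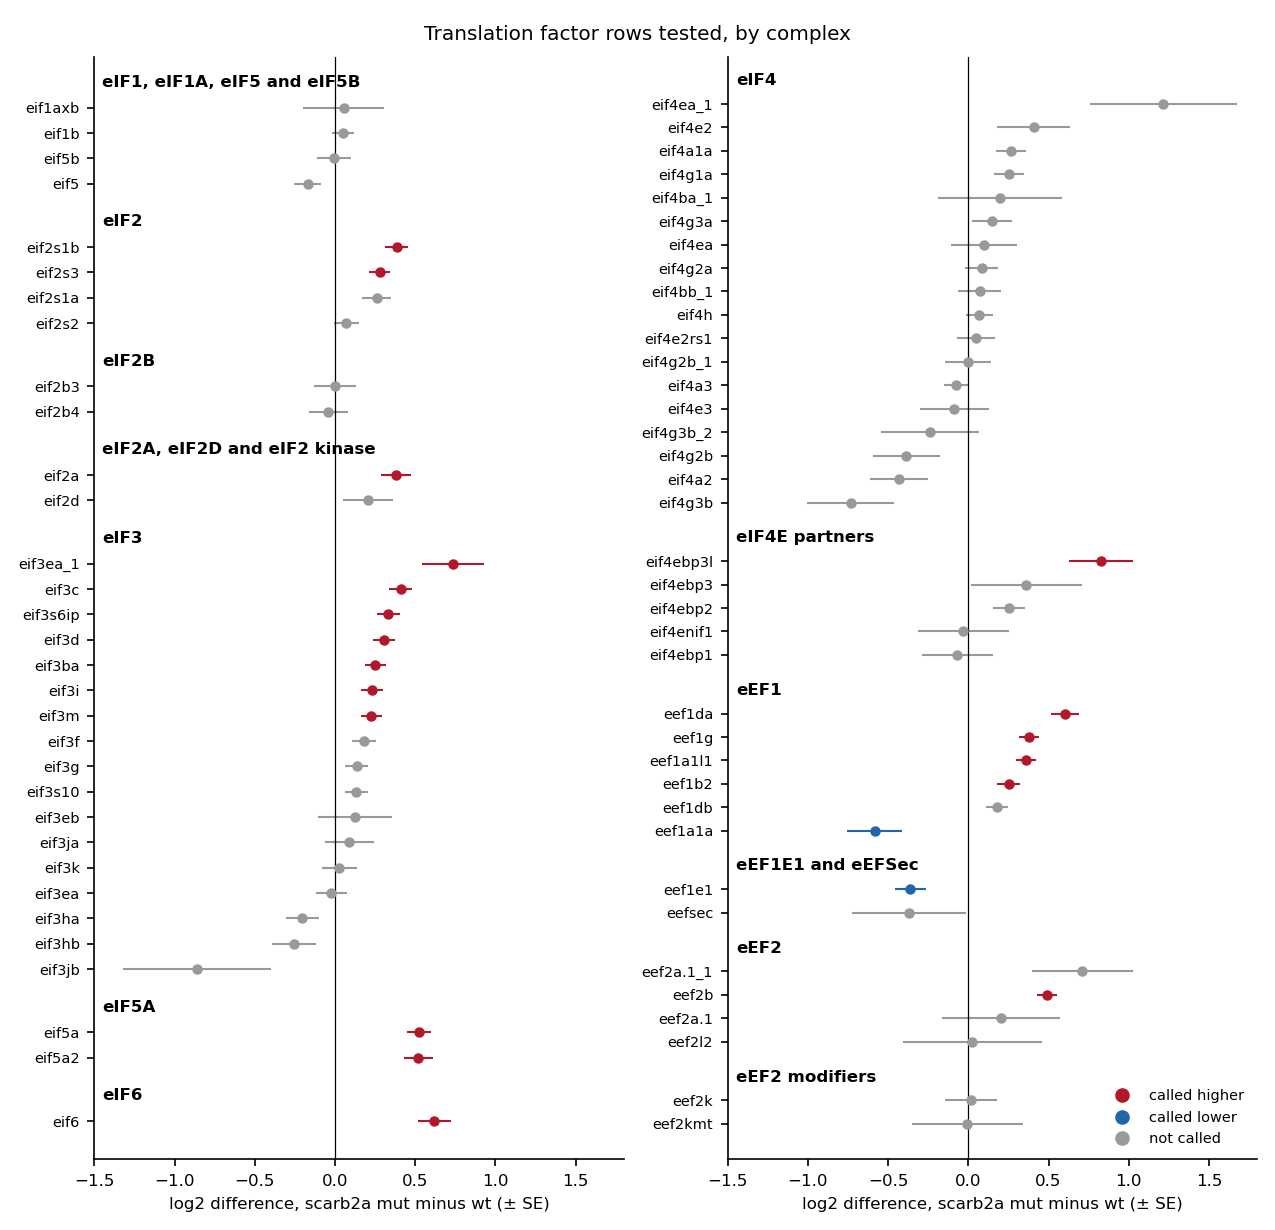
Log2 differences (x axis, scarb2a mut minus wt, limma on log2(value + 1); bars are SE) of the 69 translation factor rows tested, grouped by complex. Red rows passed an adjusted p of 0.05 as higher (19), blue rows as lower (2) and grey rows did not pass (48). The red rows lie in eIF2, eIF3, eIF5A, eIF6, eEF1 and eEF2 (eef2b only), besides eif2a and eif4ebp3l. The eIF4 group has none.

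Among the eIF2 subunits, alpha and gamma transcripts were higher in mutants and beta was not called. eIF2 is the GTPase that carries the initiator tRNA, and phosphorylation of its alpha subunit is the switch of the integrated stress response. The alpha subunit row eif2s1b had 883, 947 and 851 normalized counts in mutant replicates 1, 2 and 3, against 684, 694 and 674 in wild type replicates 1, 3 and 4. The lowest mutant library lay above the highest wild type one, and the log2 difference was 0.38 ± 0.0729 (SE; limma adjusted p = 8.27e-04). The gamma subunit row eif2s3, which binds GTP and the tRNA, had 1758, 1708 and 1657 in the mutant libraries, against 1437, 1388 and 1394 in the wild type ones. It rose by 0.28 ± 0.065 (limma adjusted p = 0.00451), and the groups did not overlap. The second alpha row eif2s1a, with 287, 263 and 281 in mutants and 226, 241 and 225 in wild type, did not overlap between groups but missed the threshold (log2 difference 0.26, limma adjusted p = 0.0508). It passed in edgeR with an adjusted p of 0.0436, and also with a pseudocount of 5, a mean of at least 20, quantile normalization or rows of 1 symbol summed. The beta subunit eif2s2 averaged 1155 ± 82.0 in mutants and 1101 ± 81.0 in wild type (SD, n = 3 each), and its groups overlapped.

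The factors that reload eIF2 or act beside it were mixed. Neither row of the exchange factor eIF2B passed in limma, edgeR or DESeq2, adjusted or not, and eif2b3 averaged 96.8 ± 10.1 normalized counts in mutants and 96.7 ± 10.1 in wild type (SD, n = 3 each). eif2b4 had 100.4, 107 and 97.9 normalized counts in mutants, against 109.7, 95.3 and 110.0 in wild type, and the groups overlapped. eif2a, which encodes an initiator tRNA factor separate from eIF2, had 247, 257 and 241 in mutants, against 184, 202 and 187 in wild type. It rose by 0.38 ± 0.0942 (limma adjusted p = 0.00764), a call that was lost with equal totals (0.27, adjusted p = 0.0556). eif2d, another such factor, differed by 0.21 and did not pass. The eIF2 kinase PERK, eif2ak3, was near the detection limit, with 8 counts over the mutant libraries and 17 over the wild type ones, a ratio of 0.428 (95% exact interval 0.16 to 1.05, counting error only).

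**Figure D2:**
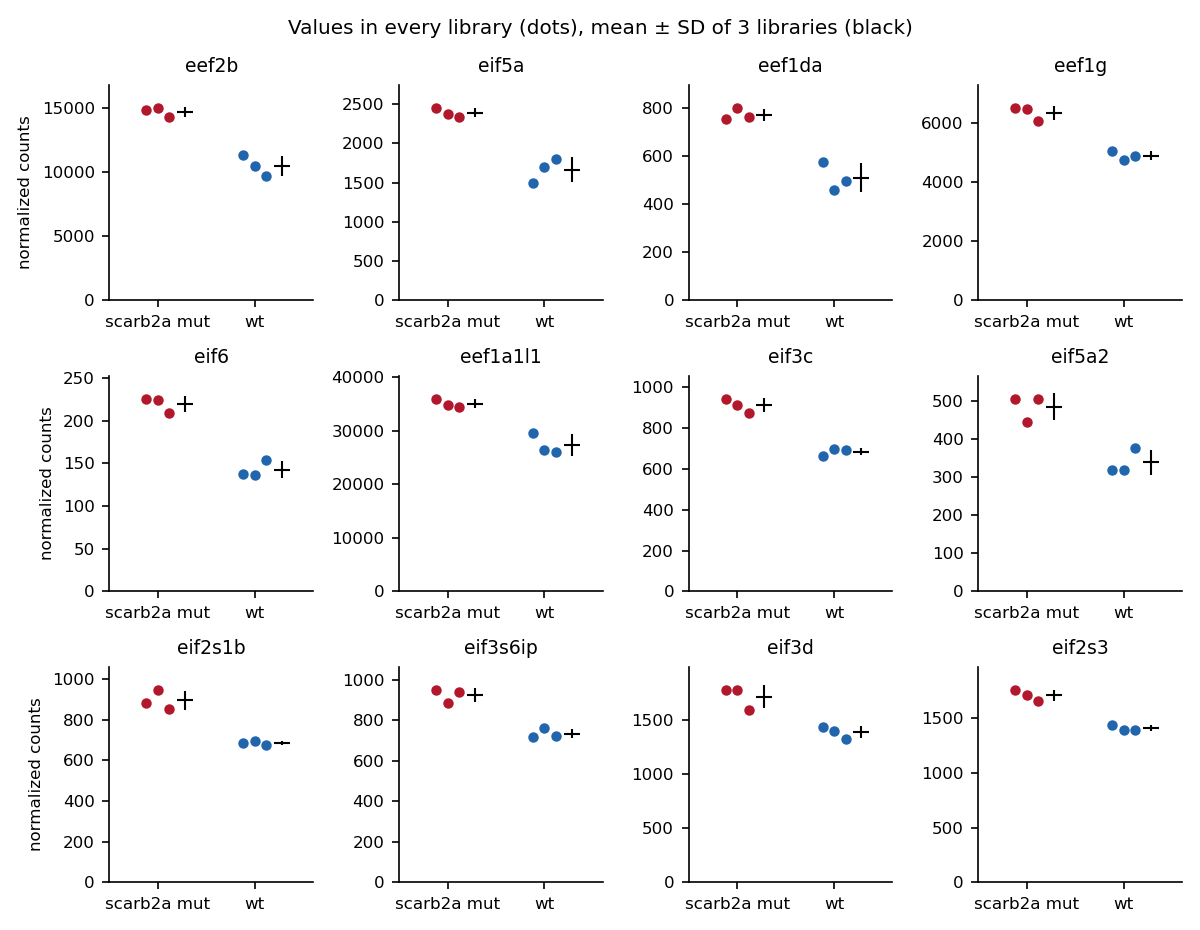
Normalized counts (y axis, from 0) in each of the 3 scarb2a mut libraries (red) and 3 wt libraries (blue), with mean ± SD in black, for the 12 members with the smallest p. In all 12 panels every mutant library lies above every wild type library. The choice by p favours such separation, so it is no separate result. Over all rows tested, 17.9% had the mutants above without overlap. The ratio of means runs from 1.21 for eif2s3 to 1.54 for eif6.

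eIF3 is the largest initiation factor, a ring of subunits on the small ribosomal subunit, and 7 of its 17 rows rose in mutants while none fell. Over all rows tested, 10.9% were higher and 8.5% lower. The median over the 17 rows was 0.14 on the log2 scale, or 0.02 with equal totals. The core subunit c, eif3c, had 945, 913 and 877 normalized counts in mutants, against 664, 697 and 695 in wild type, a log2 difference of 0.41 ± 0.0718 (limma adjusted p = 3.79e-04). Subunit l, listed under its older name eif3s6ip, had 951, 884 and 938 in mutants, against 719, 761 and 721 in wild type (0.33 ± 0.0718, limma adjusted p = 0.00254). The mutant values of both subunits lay above all wild type values. Subunit d, which can itself bind the cap of some messenger RNAs in human cells, had 1780.1, 1774 and 1594 in mutants, against 1438, 1399 and 1329 in wild type (0.30 ± 0.0698, limma adjusted p = 0.00404). The groups of eif3d did not overlap either.

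eif3ba, the scaffold subunit b, rose by 0.25, eif3i by 0.23 and eif3m by 0.23. eif3m had 1677, 1746 and 1622 normalized counts in mutants, against 1449, 1443 and 1420.1 in wild type, without overlap. With equal totals none of these 3 passed (eif3ba 0.14, adjusted p = 0.118; eif3i 0.12, adjusted p = 0.184; eif3m 0.11, adjusted p = 0.174). The eif3m call was also lost without mutant replicate 1 or 2 or wild type replicate 3 or 4 (limma adjusted p of 0.0529, 0.0906, 0.0628 and 0.0556) and with quantile normalization (0.14, 0.0577), and the eif3i call without mutant replicate 2 or wild type replicate 3 or 4 (0.131, 0.0637 and 0.0681).

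The other 10 eIF3 rows did not pass, with log2 differences from -0.86 to 0.18, and 4 of them lay below 0. Subunit f, eif3f, picked after its values were seen, differed by 0.18 with the mutants above and no overlap (limma adjusted p = 0.102). It passed as higher with quantile normalization or with wild type replicate 1 left out. Chosen after its values were seen, subunit a, listed as eif3s10, had 691, 687 and 686 normalized counts in mutants, against 627, 628 and 629.7 in wild type. The replicates were tight and the groups did not overlap, but the log2 difference was only 0.13 ± 0.0717 (limma adjusted p = 0.226). eif3ha and eif3hb, the paired genes of subunit h, differed by -0.21 and -0.25, and eif3ha passed as lower with equal totals (-0.32, adjusted p = 0.0273). These genes were chosen after their values were seen. Over all rows with a mean of at least 500, 31.5% were higher. Over rows tested at any level, 17.9% had the mutants above without overlap. That share was not computed for rows with a mean of at least 500 alone, so it is no like measure for the next count. Of 10 eIF3 rows with a mean of at least 500, 9 had every mutant library above every wild type one, and 6 passed. The exception was subunit e, where eif3ea had 791, 1104 and 959 in mutants and 971, 998 and 905 in wild type, so that the mutant replicates spread around the wild type range.

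A second row of subunit e, eif3ea_1, was called higher, but the sum of both rows did not pass. eif3ea_1 had 48.6, 56.5 and 41.7 normalized counts in mutants, against 26.5, 26 and 34.5 in wild type, a rise of 0.74 ± 0.193 (limma adjusted p = 0.0109) that was lost without mutant replicate 2 (0.63, adjusted p = 0.0633) and in DESeq2 (adjusted p = 0.0956). With both rows of the symbol added up, the means were 1000.1 ± 160 in mutants and 987 ± 43.1 in wild type (SD, n = 3 each), a log2 difference of 0.0073 (limma adjusted p = 0.969). The sources used here do not say how reads were divided between such rows.

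**Figure D3:**
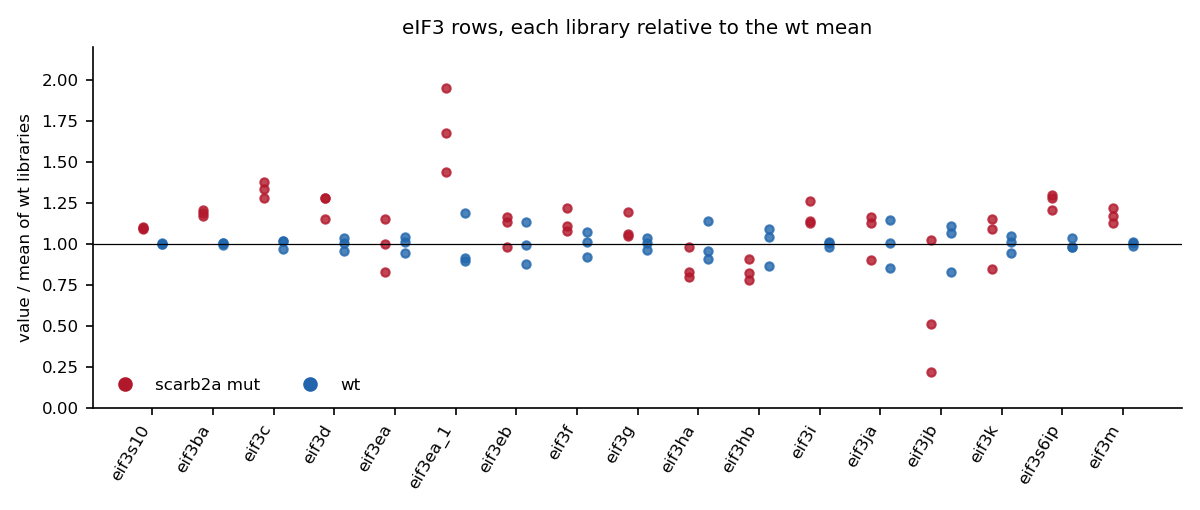
Value of each eIF3 row in each library divided by the mean of the 3 wt libraries (y axis, linear; scarb2a mut red, wt blue), from subunit a (eif3s10) to subunit m. Rows c, d and l (eif3s6ip) stand above 1 in all mutant libraries, mutant values of subunit h rows stand below 1, and eif3jb, with few counts, spreads widely.

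None of the 18 rows of the eIF4 group passed in limma, edgeR or DESeq2 (5, 5 and 2 rows at an unadjusted p under 0.05), with a median of 0.07 on the log2 scale that turned to -0.04 with equal totals. Their log2 differences ran from -0.73 to 1.22, with 11 above 0. Of the 18 rows, 4 had the mutants above without overlap and 2 had the mutants below. Over all rows tested these shares were 17.9% and 16.7%. The eIF4 group holds the cap-binding eIF4E proteins, the eIF4G scaffolds, and the eIF4A helicases with their cofactors. eif4a3, whose product is the helicase of the exon junction complex rather than of initiation, had 489, 456 and 469 normalized counts in mutants, against 503, 507 and 478 in wild type, with overlap. The other eIF4 rows named here were chosen after their values were seen. eif4a1a, which encodes an initiation helicase, averaged 447 ± 51.3 in mutants and 371 ± 26.1 in wild type (SD, n = 3 each; log2 difference 0.26, limma adjusted p = 0.0543). The scaffold row eif4g1a averaged 257 ± 9.91 in mutants and 216 ± 16.9 in wild type (log2 difference 0.25, limma adjusted p = 0.0693). The related rows eif4a2 and eif4g3b differed the other way, by -0.43 and -0.73, with mutant values below all wild type values, and both passed as lower with equal totals (adjusted p of 0.0459 and 0.0326). Other settings called rows too: eif4a1a passed as higher with a pseudocount of 5, a mean of at least 20, quantile normalization or mutant replicate 2 left out, eif4g1a with quantile normalization or wild type replicate 1 left out, and eif4g3b as lower with mutant replicate 2 left out. The second row of eif4g3b, eif4g3b_2, differed by -0.24, and the sum of both rows by -0.49 (limma adjusted p = 0.0681). The eIF4 rows together took 0.121 to 0.136% of the counts in mutant libraries and 0.129 to 0.135% in wild type ones.

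The binding proteins that hold eIF4E away from the scaffold, the 4E-BPs, were grouped with the eIF4E transporter gene. Of 5 rows tested in this group 1 was higher, beside 10.9% of all rows tested. eif4ebp3l had 58, 48.5 and 58 normalized counts in mutants, against 39.2, 22.7 and 31.3 in wild type, so that the groups did not overlap. It rose by 0.83 ± 0.2 (limma adjusted p = 0.00613), the largest size of difference among called members. The related row eif4ebp3 had 14.5, 10.9 and 13.6 in mutants, against 15, 9.7 and 6.4 in wild type, and did not pass (0.36, limma adjusted p = 0.523). eif4ebp2 had 251, 223 and 258 in mutants, against 194, 197 and 222 in wild type, without overlap but also without a call (0.26, limma adjusted p = 0.0812; 0.0492 with quantile normalization). eif4ebp1 and the eIF4E transporter gene eif4enif1, chosen after their values were seen, differed by -0.07 and -0.03, and neither passed. The second row of eif4ebp1 had 6 counts over the mutant libraries and 14 over the wild type ones, too few to test.

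The 4 rows of start codon choice and subunit joining gave no call in limma, edgeR or DESeq2, and none had an unadjusted p under 0.05. eif1b, whose product guards the choice of start codon, had 1392, 1436 and 1492 normalized counts in mutants, against 1320.4, 1464 and 1388 in wild type, and the groups overlapped (log2 difference 0.05 ± 0.0686, or -0.06 with equal totals). eif5, the activator of the eIF2 GTPase, differed by -0.17 with all mutant values below all wild type values, and passed as lower with equal totals (adjusted p = 0.0255). It was chosen after its values were seen. eif1axb, of the factor that keeps the scanning complex open, differed by 0.05. eif5b, of the factor that joins the subunits, averaged 157 ± 10.9 in mutants and 158 ± 9.06 in wild type (SD, n = 3 each).

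All 3 rows of eIF5A and eIF6 rose, beside 10.9% of all rows tested. eIF5A, the protein that carries the amino acid hypusine, helps the ribosome form peptide bonds at difficult sequences such as runs of proline. eif5a had 2454, 2377 and 2339 normalized counts in mutants, against 1496, 1701 and 1802 in wild type, a rise of 0.52 ± 0.0726 (limma adjusted p = 3.10e-05). Its relative eif5a2 had 507, 445 and 505 in mutants, against 319.7, 319 and 378 in wild type, a rise of 0.52 ± 0.0916 (limma adjusted p = 4.13e-04). In both genes the lowest mutant library was above the highest wild type one, and their ratio within a library overlapped between genotypes. eIF6 keeps the large ribosomal subunit from joining too early and serves in its maturation. eif6 had 226, 224 and 209 in mutants, against 137, 136 and 154 in wild type, a rise of 0.62 ± 0.102 (limma adjusted p = 2.08e-04), and the groups did not overlap.

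Of the 6 eEF1 rows tested 4 rose and 1 fell, with a median of 0.31 on the log2 scale, or 0.19 with equal totals. Over all rows tested, 10.9% were higher and 8.5% lower. All tested eEF1 rows but eef1a1a had a mean of at least 500, where 31.5% of all rows were higher and 15.4% lower. eef1a1l1, an eEF1A gene and the row with the highest value in every library, had 36044, 34778 and 34468 normalized counts in mutants, against 29703, 26391 and 26046 in wild type. All mutant libraries lay above all wild type libraries, and the log2 difference was 0.36 ± 0.0626 (limma adjusted p = 3.58e-04). This 1 row took 1.83 to 1.89% of all counts in the mutant libraries and 1.52 to 1.65% in the wild type ones. The 95% exact intervals, which cover counting error only, reached from 1.81 to 1.91% in mutants and from 1.51 to 1.67% in wild type. Under quantile normalization its difference was lost, because a row that ranks alike in every library is given the same value.

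Of the 4 rows of eEF1 subunits that exchange the nucleotide of eEF1A or hold the complex, 3 rose. eef1da, a delta subunit, had 752, 801 and 761 normalized counts in mutants, against 576, 458 and 495 in wild type (0.60 ± 0.086, limma adjusted p = 4.30e-05). Its pair eef1db had 1226, 1175 and 1174 in mutants, against 1038, 1053 and 1066 in wild type (0.18 ± 0.0671, limma adjusted p = 0.0683). Both were without overlap, and eef1da passed while eef1db did not, though it did with quantile normalization (adjusted p = 0.0492). The structural gamma subunit eef1g had 6517, 6457 and 6081 in mutants, against 5047, 4737 and 4877 in wild type (0.38 ± 0.0608, limma adjusted p = 1.68e-04). The beta subunit eef1b2 rose by 0.25 ± 0.0719 (limma adjusted p = 0.0183). The eef1b2 call was lost with equal totals (0.14, adjusted p = 0.0685), with quantile normalization (0.12, adjusted p = 0.103) and without mutant replicate 1 or 2 or wild type replicate 3 or 4 (adjusted p of 0.059, 0.11, 0.0669 and 0.0937).

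eef1a1a, another eEF1A gene, was the 1 eEF1 row that fell. It had 54.9, 39.6 and 38.1 normalized counts in mutants, against 57.7, 72.5 and 68.3 in wild type, and fell by 0.58 ± 0.173 on the log2 scale (limma adjusted p = 0.0221). The groups did not overlap, yet the call was lost without mutant replicate 2 (-0.52, adjusted p = 0.0758) or 3 (-0.49, 0.0959), without wild type replicate 3 (-0.52, 0.0924) or 4 (-0.56, 0.0749), and in DESeq2 (-0.59, 0.127). eef1a1l2, under the limit for the test, had 17 counts over the mutant libraries and 4 over the wild type ones, a ratio of 3.86 (95% exact interval 1.26 to 15.8, counting error only; limma adjusted p = 0.113 without the filter). eef1a1b had 9 counts over the mutant libraries and 11 over the wild type ones. The eEF1A genes are close in sequence, and reads shared between them may have been divided by the counting.

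The other fall was that of eef1e1, which despite its symbol encodes a partner of the aminoacyl-tRNA synthetase complex in mammals. It had 189, 192 and 204 normalized counts in mutants, against 267, 234 and 254 in wild type, without overlap, and fell by 0.36 ± 0.0956 (limma adjusted p = 0.0113). In DESeq2 it missed the threshold (-0.36, adjusted p = 0.0555). eefsec, the elongation factor for selenocysteine, differed by -0.37 and did not pass.

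Of the 4 eEF2 rows tested 1 rose, the row with most of the eEF2 counts, beside 10.9% of all rows tested. eef2b, which encodes the translocase, had 14787, 15001 and 14253 normalized counts in mutants, against 11283, 10429 and 9675 in wild type, the smallest p of all members (log2 difference 0.49 ± 0.0644, limma adjusted p = 1.64e-05). The mutant range lay wholly above the wild type range, and the row took 0.777 to 0.788% of all counts in mutant libraries and 0.577 to 0.627% in wild type ones. The exact intervals reached from 0.765 to 0.801% in mutants and from 0.567 to 0.639% in wild type. The rarer eEF2 rows held few counts: eef2a.1 and eef2a.1_1 added up to 28.1 ± 4.08 in mutants and 20.03 ± 4.29 in wild type (SD, n = 3 each; log2 difference 0.48, limma adjusted p = 0.182). eef2l2_1 was at 0 in all mutant libraries and had 9 counts over the wild type ones, a ratio whose 95% exact interval runs from 0 to 0.461 (counting error only; limma adjusted p = 0.164 without the filter). The sum with eef2l2 was 5.83 ± 1.27 in mutants and 8.47 ± 3.07 in wild type and did not pass (limma adjusted p = 0.516). Neither row of eEF2 modifiers passed in limma, edgeR or DESeq2, or had an unadjusted p under 0.05. eef2k, the kinase that halts eEF2, had 45.5, 57.5 and 51.7 in mutants, against 47.3, 49.8 and 55.4 in wild type, and the groups overlapped. The other eEF2 modifier, the methyltransferase gene eef2kmt, averaged 12.2 ± 4.47 in mutants and 11.8 ± 1.88 in wild type (SD, n = 3 each).

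Shares of all counts were summed for eIF2, eIF3, eIF4, eIF5A, eEF1 and eEF2, and not for the other groups of rows. They did not overlap between genotypes for eIF2, eIF3, eIF5A, eEF1 and eEF2. The eEF1 rows took 2.6 to 2.65% in mutants and 2.17 to 2.32% in wild type, and the eEF2 rows 0.779 to 0.79% in mutants and 0.579 to 0.628% in wild type. The eIF3 rows took 0.705 to 0.722% in mutants and 0.656 to 0.678% in wild type. The eIF2 rows took 0.212 to 0.218% in mutants and 0.195 to 0.199% in wild type, and the eIF5A rows 0.148 to 0.156% in mutants and 0.101 to 0.13% in wild type. All members together came to 4.78 to 4.81% in mutants and 4.08 to 4.2% in wild type, of which 3.41 to 3.44% in mutants and 2.8 to 2.96% in wild type were eEF rows. Most of the eEF counts came from eef1a1l1 and eef2b. A share of the library total corresponds to scaling all libraries to equal totals.

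**Figure D4:**
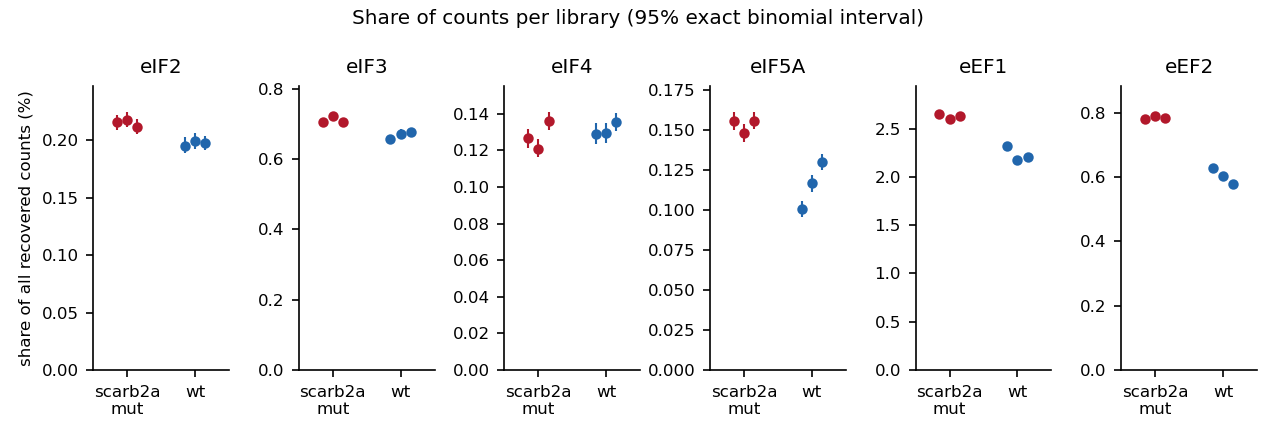
Share of all recovered counts in each library (y axis, percent, from 0; scarb2a mut red, wt blue) for the rows of 6 complexes, with 95% exact binomial intervals that cover counting error only. The eEF1 and eEF2 shares lie apart between genotypes, while eIF4 overlaps, between 0.121 and 0.136% in mutants and 0.129 and 0.135% in wild type.

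Related genes were also compared by their ratio within a library. The ratio of eef1a1a to eef1a1l1 was lower in all mutant libraries, by 0.94 on the log2 scale, while that of eef1da to eef1db was higher by 0.42, that of eif4a1a to eif4a2 by 0.70 and that of eif4g3a to eif4g3b by 0.88. Those of eif2s1a to eif2s1b (-0.12) and of eif3ea to eif3ea_1 (-0.76) were lower without overlap. Overlap was found for eif5a to eif5a2 (0.01), eif3ha to eif3hb (0.05), eif4g2a to eif4g2b (0.47) and eif4ebp3 to eif4ebp3l (-0.47). Over 10 pairs compared, the smallest p was 0.1 (two-sided exact permutation test), the smallest that 3 against 3 libraries allow, or 0.167 after adjustment over the 10 pairs. None of the differences between pairs could therefore pass. The ratio needs no scaling between libraries.

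**Figure D5:**
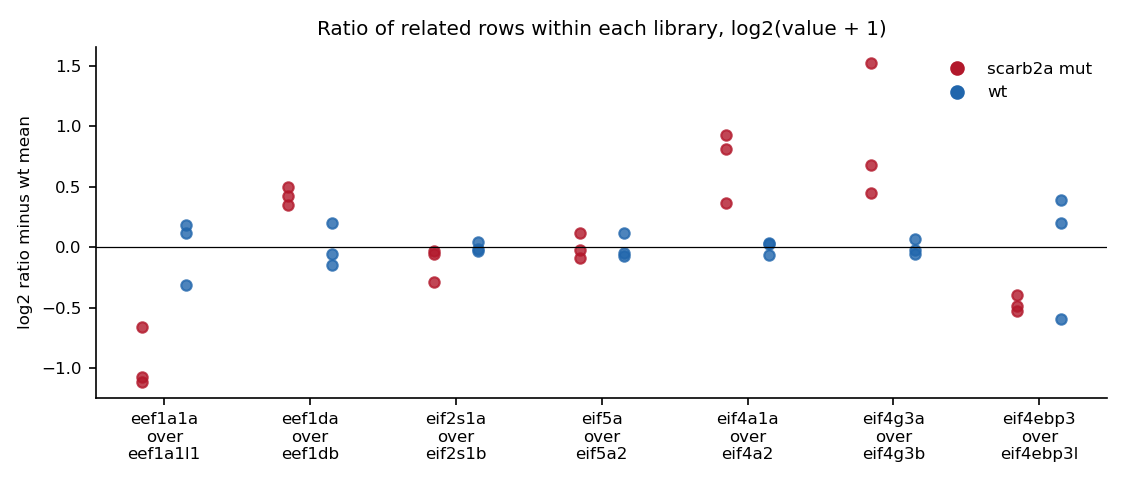
Log2 ratio of 7 pairs of related rows within each library, minus the mean of the wt libraries (y axis; scarb2a mut red, wt blue; computed on log2(value + 1)). eef1a1a over eef1a1l1 lies below all wt libraries in every mutant library, eif4a1a over eif4a2 and eif4g3a over eif4g3b lie above, and eif5a over eif5a2 overlaps.

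Of the other genes of translation, 42 of 57 tested did not pass. Of the 57 from a list of 114 symbols, 14 were higher and 1 lower, with a median log2 difference of 0.17, or 0.06 with equal totals. Over all rows tested, 10.9% were higher and 8.5% lower, with a median of -0.01, and the counts in the short lists below are to be read beside these shares. Of 18 cytosolic aminoacyl-tRNA synthetases and partners, which charge tRNAs, 8 were higher and none lower (median 0.30). Of 3 release and recycling factors 2 were higher, and of 10 scanning and re-initiation helpers 2, while none of 6 mitochondrial factors, 5 kinases and phosphatase parts, or 5 diphthamide and hypusine enzymes passed in limma, edgeR or DESeq2, or had an unadjusted p under 0.05. Among 10 poly(A) and cap proteins 2 were higher and 1 lower. bzw1b, whose human relative competes with eIF5 for eIF2, had 180.1, 194 and 213 normalized counts in mutants, against 113, 99.6 and 99.6 in wild type (0.90, limma adjusted p = 8.53e-06). The methionyl-tRNA synthetase gene mars had 124, 136 and 129.7 in mutants, against 80.8, 82.3 and 81.1 in wild type (0.67, limma adjusted p = 3.86e-04). tpt1, which encodes the translationally controlled tumour protein, had 6082, 6327 and 6245 in mutants, against 4834, 5121 and 5016 in wild type (0.32, limma adjusted p = 7.23e-04). The lower gene was cyfip2, part of an actin-regulating complex, with 15.5, 14.9 and 14.5 in mutants, against 41.6, 41.1 and 30.5 in wild type (-1.27, limma adjusted p = 4.94e-04). For comparison, 46 of 83 cytosolic ribosomal protein rows tested were higher and 1 lower, with a median of 0.26. No test of the difference between these lists and the translation factors was made.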

How the data were processed

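The deposited table gives, per the file's name and values, a normalized signal: gene counts divided by 1 factor per library by the authors, of which 99.997% of 67308 values were whole multiples of 1 count (tolerance 0.0505). In every library the factor equalled, to the digits kept, the median ratio factor computed from the recovered counts. The alternative of median ratio scaling therefore repeats the deposited scaling. In mutant replicate 2 the value of 1 count was 0.991, close to 1, so its counts rest on values beyond the lowest ones. The labels' protocols describe bulk MARS-seq, and the submitters' processing notes name danRer11. Aligner, counter and filter: not given in the sources used here.

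Rows with a mean of at least 5 were tested on the log2(value + 1) scale by limma, with a fitted trend of variance on mean and genotype as the only term. Adjustment was by Benjamini and Hochberg's method, with a threshold of 0.05. edgeR and DESeq2 were run on the recovered counts as alternatives. The procedure was tested on simulated data. Exact binomial intervals and floors of 3 counts cover counting error only. The members and gene lists were chosen with earlier results of these data known. Values in every library are given for the 12 members with the smallest p, the row of highest mean value in each complex (3′ tags, not a level per length), and related pairs with 1 call. Other called members have their log2 difference. Members named besides these were chosen after their values were seen. Here higher and lower, rose and fell are written of genes past the threshold. All 74 rows matched a RefSeq symbol (assembly GRCz12tu, used for names only), 9 of them after removal of a number suffix. Of 114 symbols of other translation genes, 60 had a row. The labels call the libraries biological replicates. Tests were run with limma 3.58.1, DESeq2 1.42.0 and edgeR 4.0.16 in R 4.3.3, and summaries and plots were made with scipy 1.17.1, pandas 2.3.3, matplotlib 3.10.9 and numpy 2.4.6 in Python 3.11.15. Alternatives were other pseudocounts, filters, scalings, variance models, thresholds and count tests, a replicate block, rows of 1 symbol summed, and each library left out in turn.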

Additional observations from a re-analysis of the deposited data

How the results depend on the processing

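Depth limits the rarer members: 5 were under the filter, and in the range from 5 to 100 the median SE was 0.223. The members called numbered 21 (19 higher, 2 lower) and stayed between 18 and 24 under the other scalings, pseudocounts, filters and count tests, and were 14 at a threshold of 0.01 and 28 at 0.1. The set of called members changed more than its size. With equal totals 16 calls were shared with the main fit, 5 were lost and 4 gained. With quantile normalization 18 were shared, 3 lost and 6 gained. Without a mean-variance trend limma called 2 members (2 higher, 0 lower; eef1da and eif6), 1007 of all rows (578 higher, 429 lower) and 4 other translation genes (3 higher). With equal totals 6 members, 1306 of all rows and 2 other translation genes were lower. DESeq2 called 0 members lower and 1031 of all rows (623 higher, 408 lower). At an adjusted p of 0.01, 0 members were lower, and 1045 of all rows passed (617 higher, 428 lower). For these settings the cause was not tested.

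The members' median of 0.1313 was 0.0192 with equal totals, 0.1104 without a filter, 0.1092 with quantile normalization and 0.1156 with totals taken without members and ribosomal protein genes, an alternative chosen after seeing the data. When each library was left out in turn, it ran from 0.1229 to 0.1794, members called ran from 17 to 23, and members called lower from 1 to 2.

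Replicate numbers 1 and 3 occur in both genotypes. Deviations from the group means correlated by 0.0429 and -0.00952 for these numbers, so the numbers give no sign of pairing. In a replicate block, mutant replicate 2 and wild type replicate 4 had no partner and added nothing to the differences. That fit rested on replicates 1 and 3 alone, so it is no check on all libraries. With the replicate block 22 members were called (21 higher, 1 lower), of which 19 were called without it too, and 1597 of all rows were called. The calls of eef1a1a (-0.49, adjusted p = 0.114) and eif3i (0.17, adjusted p = 0.0705) were lost with the block, those of eef1db (adjusted p = 0.0386), eif4ebp2 (0.0167) and eif4a1a were gained, and the difference of eef1b2 was 0.14.

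Of 578 checks of named members under single alternatives, 516 kept direction and side of the threshold, 48 lost a call, 9 gained one and 5 changed sign. These totals include 29 checks under median ratio scaling, which repeats the deposited scaling, so that all of them had to stay the same. They also include the replicate block. Without a mean-variance trend, 19 named members lost a call and 10 stayed the same. The sign changes were of eef2k, with a log2 difference of 0.02, which became -0.0932 with equal totals and -0.0009 with the replicate block, and ran from -0.0633 to 0.1023 when each library was left out in turn, and of eif1b (-0.0613 with equal totals). Neither gene was called under any of these.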
